A study of Mus musculus with 20 samples.

Results

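A set of 36 genes known from macrophages was followed through RNA-seq and ATAC-seq libraries of sorted mouse cardiac fibroblasts after myocardial infarction (MI). The members were a list of gene symbols, looked up in the deposited count table, and all 36 were found among its 25746 genes. The cells carried an eGFP mark of the Tcf21 lineage, which a tamoxifen-activated MerCreMer recombinase had switched on, and the sort gate was placed with eGFP-negative wild-type cells. Every group shared that mark, the tamoxifen course (75 mg/kg/day for 5 days), the enzymatic digestion of the heart and the sort. Hearts were taken without injury, 3 days after MI, 7 days after it, 2 weeks after it or 4 weeks after it, and each of these groups has 2 RNA and 2 ATAC libraries. Each RNA library began with 10000 sorted cells. The labels give no strain, age or sex, leave it unsaid whether the paired libraries of a group stem from different hearts, and do not tie RNA replicate numbers to ATAC replicate numbers. The p-values below therefore measure only the spread between these libraries. For the uninjured and week 2 pairs it may be technical, while the pairs of day 3, day 7 and week 4 differed in Y-linked counts (below).

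Macrophages are phagocytes of the myeloid lineage. Their identity depends on the transcription factor PU.1, encoded by Spi1, and on signalling through the CSF1 receptor, encoded by Csf1r. After MI the heart's resident macrophages are joined by monocytes from the blood, which enter through the chemokine receptor CCR2, clear dead tissue and later give way to scar repair. Fibroblasts of the Tcf21 lineage come mainly from the epicardium and are not blood cells.

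Library totals were 16397211 to 21043997 counts, and a floor of 3 counts corresponded to 0.146 to 0.186 CPM (counts scaled to an effective library size that the TMM method gives). The fibroblast label was checked on 12 fibroblast markers, whose summed level averaged 40580 ± 11200 CPM at day 3, 62100 ± 7090 CPM at day 7, 43700 ± 10200 CPM at week 2 and 70450 ± 1990 CPM at week 4, against 65920 ± 1030 CPM in the uninjured libraries (SD, n = 2 each). Of the 12, 5 rose and 5 fell at day 3, 5 rose and 4 fell at day 7, 4 rose and 2 fell at week 2, and 4 rose and 0 fell at week 4. Tcf21 itself had 23.1 and 31.6 CPM in the uninjured libraries, 10.7 and 7.82 at day 3, 12.01 and 9.53 at day 7, 10.5 and 36.2 at week 2 and 23.5 and 22.5 at week 4. Mitochondrial genes took 4.21% of counts in week 2 replicate 1 and 0.987 to 1.49% in the other libraries after MI, against 2.66 and 2.71% in the uninjured libraries. The part of these 2 readings in the results on the 36 genes was not tested. One library stood apart in its label: the sample code of week 2 replicate 2 began with another letter than the codes of all other RNA libraries. Y-linked genes took 0.0124 to 0.0429% of the counts of 5 libraries, which were day 3 replicate 1, day 7 replicate 2, week 4 replicate 2 and both of week 2. In the remaining 5, among them both uninjured libraries, that share did not pass 6.45e-05%. The paired libraries of day 3, of day 7 and of week 4 thus differed as cells of different sex do, and cannot be repeats of the same cells. The spread within these groups includes that difference. Both week 2 libraries had Y-linked counts and both uninjured libraries almost none, so sex and time cannot be told apart in that comparison. Among the 5 with almost no Y-linked counts, the summed level of the 36 genes was 2456 CPM in day 3 replicate 2, 3536 CPM in day 7 replicate 1 and 401 CPM in week 4 replicate 1, against 239 and 224 CPM in the uninjured libraries.

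The 36 genes were low in the uninjured libraries, higher at day 3, highest at day 7 and lower again at week 2 and week 4. Their summed level was 239 and 224 CPM in the uninjured libraries, 1704 and 2456 CPM at day 3, 3536 and 5580 CPM at day 7, 1010 and 1221 CPM at week 2, and 401 and 557 CPM at week 4. No library of any time after MI was as low as the uninjured ones, and the libraries of the 5 groups did not overlap in this sum. The means were 2080 ± 532 CPM at day 3, 4558 ± 1450 CPM at day 7, 1116 ± 149 CPM at week 2 and 479 ± 110 CPM at week 4, against 231.8 ± 10.7 CPM in the uninjured libraries (SD, n = 2 each). The ratios of these means to the uninjured mean were 8.97, 19.7, 4.81 and 2.07 in the order of the times. Lgmn alone took 48.3 and 40.3% of the summed counts of the 36 genes in the uninjured libraries. Its share was 27 and 17.3% at day 3, 12.6 and 8.87% at day 7, 18.8 and 18.4% at week 2, and 37.3 and 23.9% at week 4. The uninjured sum, and with it each ratio, thus rested in large part on this gene. In a sample of many cells, fewer cells of a type and less RNA per cell cannot be told apart, and this holds for every level given here.

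**Figure D1:**
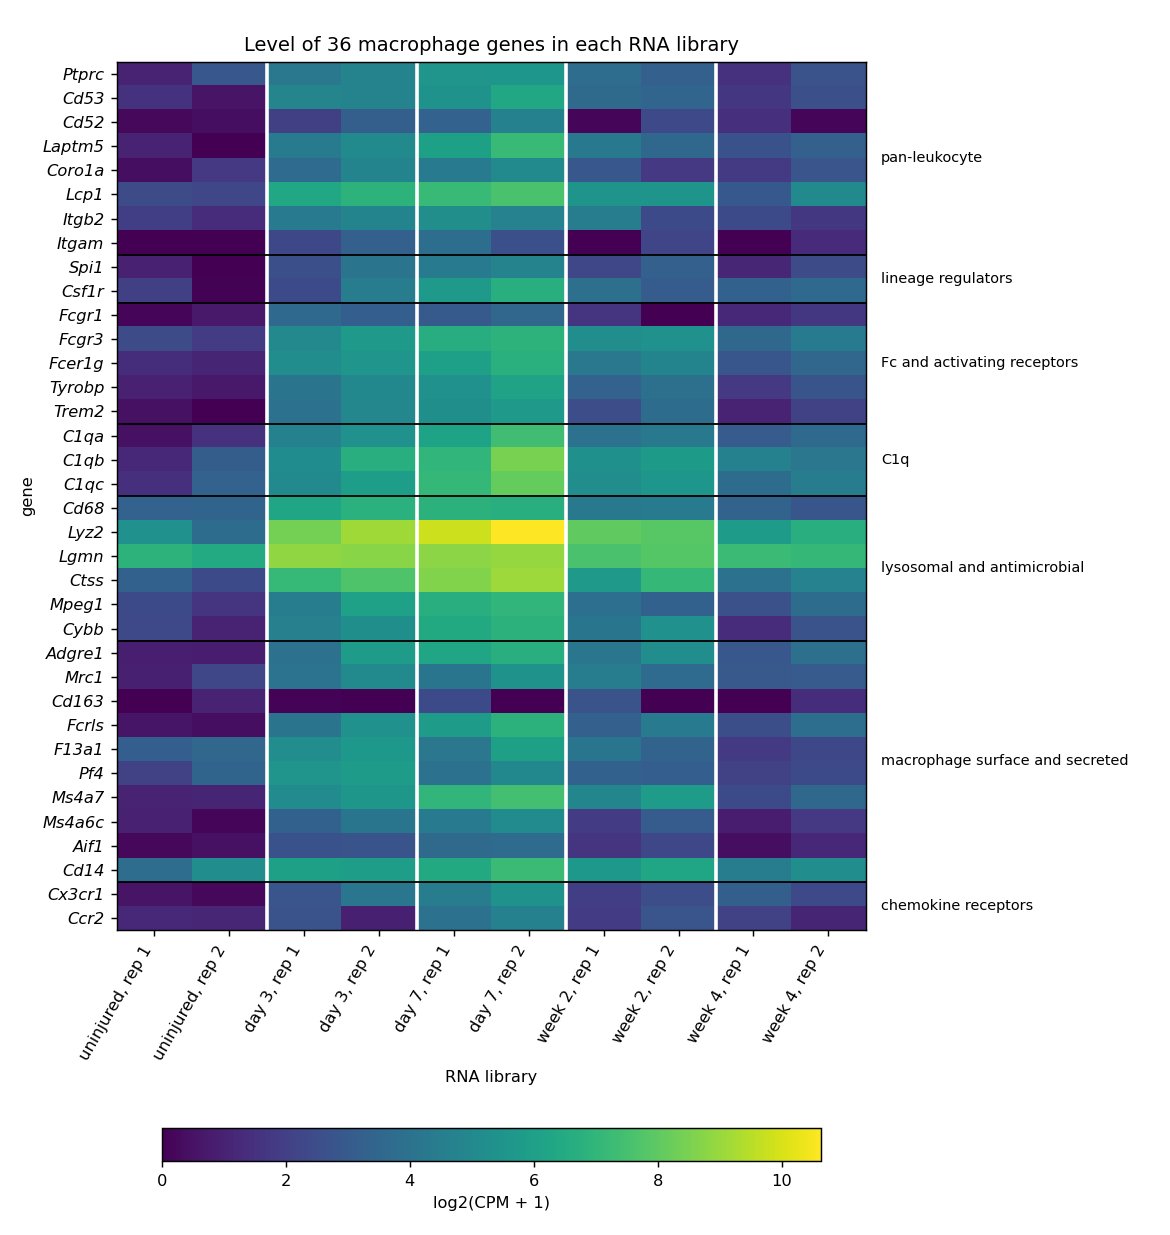
Level of each of the 36 genes (rows, grouped by role) in each of the 10 RNA libraries (columns), as log2(CPM + 1) on the colour scale. The day 7 columns are the brightest of their row for most genes, and Cd163 has no such peak at day 7.

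By gene, 32 of the 36 had their highest mean at day 7, Fcgr1, F13a1 and Pf4 had it at day 3, and Cd163 had it at week 2. The lowest mean was that of the uninjured group for 32 genes, that of week 4 for Cd68, F13a1 and Pf4, and that of day 3 for Cd163. The group with the highest mean lay above the second highest without overlap for 27 of the 36 genes, and the libraries of the top 2 groups overlapped for the rest. Across the 10 libraries, which share the 5 groups, 30 genes had a Pearson correlation above 0.8 with the mean of the other 35 (log2 levels, each gene standardised), and 22 had one above 0.9. Tyrobp was the most alike at 0.993, and Cd163 was the least alike at -0.015.

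**Figure D2:**
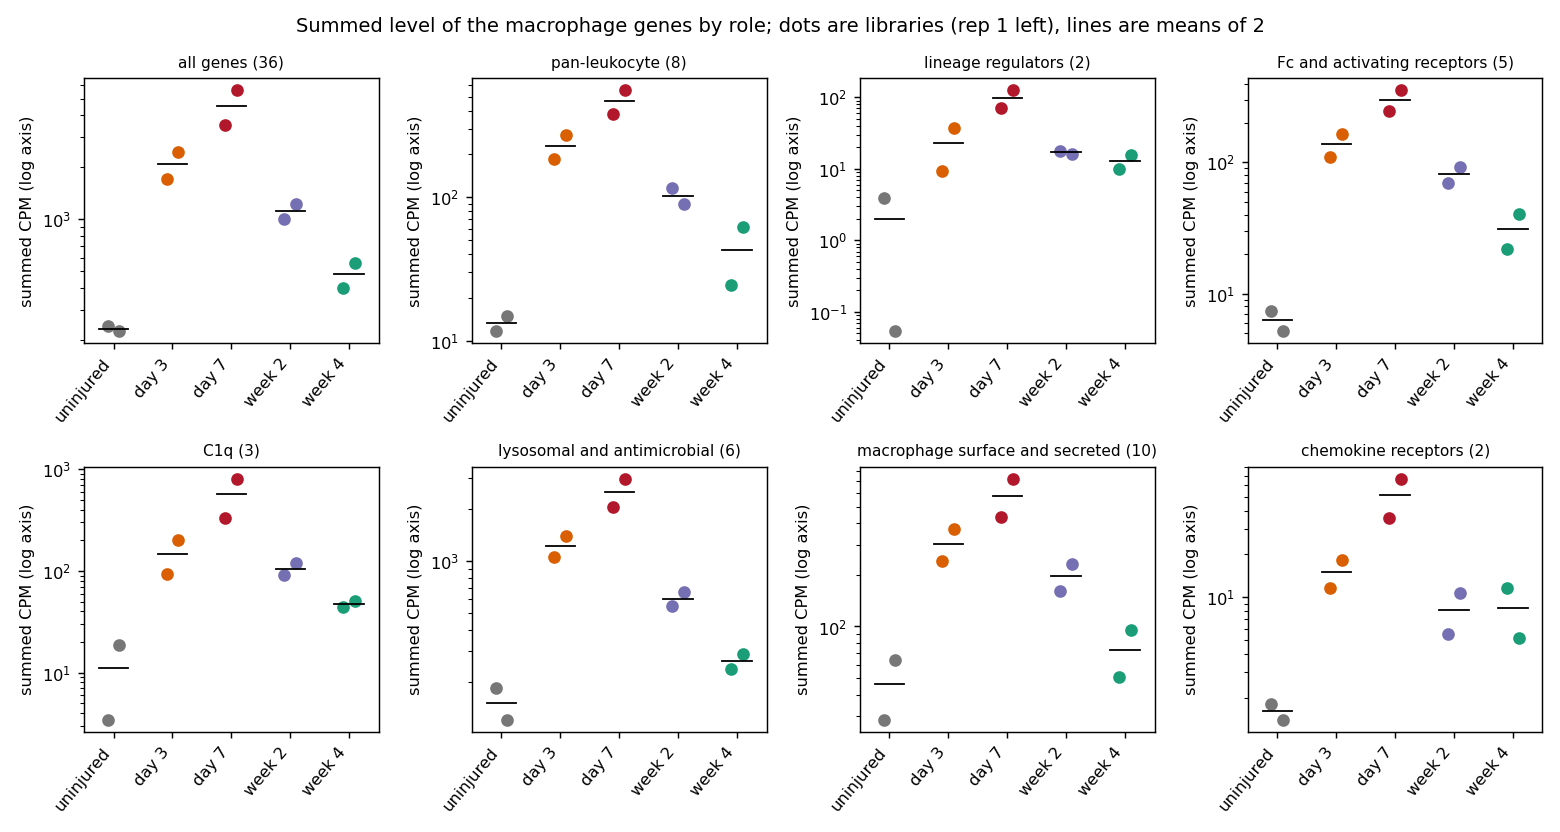
Summed CPM (log axes) of all 36 genes and of the 7 role groups, with the number of genes in brackets; dots are the 2 libraries of each group and lines their mean. Each role group has its highest mean at day 7, and the week 4 means lie above the uninjured means in every panel.

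Each time was tested against the uninjured libraries in 1 fit over all 14968 genes that passed the filter on low counts, all 36 members among them, with edgeR's quasi-likelihood test and Benjamini-Hochberg adjustment at 0.05 over all of these genes. At day 3, 29 of the 36 genes rose, where 7.39% of all tested genes were called higher. At day 7, 31 rose, with 4.39% of all tested genes called higher. At week 2, 15 rose (1.44% of all tested genes), and at week 4, 7 rose (1.85%), namely Fcgr3, Fcer1g, C1qa, Adgre1, Fcrls, Ms4a7 and Cx3cr1. No member was called lower than uninjured at any time, where 4.4%, 2.76%, 0.454% and 0.474% of all tested genes were called lower at day 3, day 7, week 2 and week 4. At an unadjusted p under 0.05, 34, 35, 28 and 21 members were higher in the same order, where 14, 11.1, 5.85 and 7.88% of all tested genes were, and 1, F13a1 at week 4, was lower, where 10.9, 9.05, 4.7 and 4.85% of all tested genes were. DESeq2 called 33, 35, 25 and 13 higher and none lower, with 11.2, 7.74, 3.33 and 4.42% of all genes it tested called higher and 8.83, 6.1, 2.14 and 2.04% called lower.

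The median log2 fold change of the 36 genes over uninjured was 4.21 at day 3, 5.5 at day 7, 3.21 at week 2 and 1.66 at week 4, whereas the median over all tested genes lay between -0.02 and 0. Itgam, which had no count in either uninjured library, entered these medians with a fitted value, and they did not move when it was set to its lower bound. Both libraries of the time lay above both uninjured libraries for 34 members at day 3 (29.5% of all tested genes), 35 at day 7 (27.3%), 30 at week 2 (19.3%) and 23 at week 4 (25.6%). F13a1 alone lay below both uninjured libraries, at week 4, where 25.6% of all tested genes did.

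**Figure D3:**
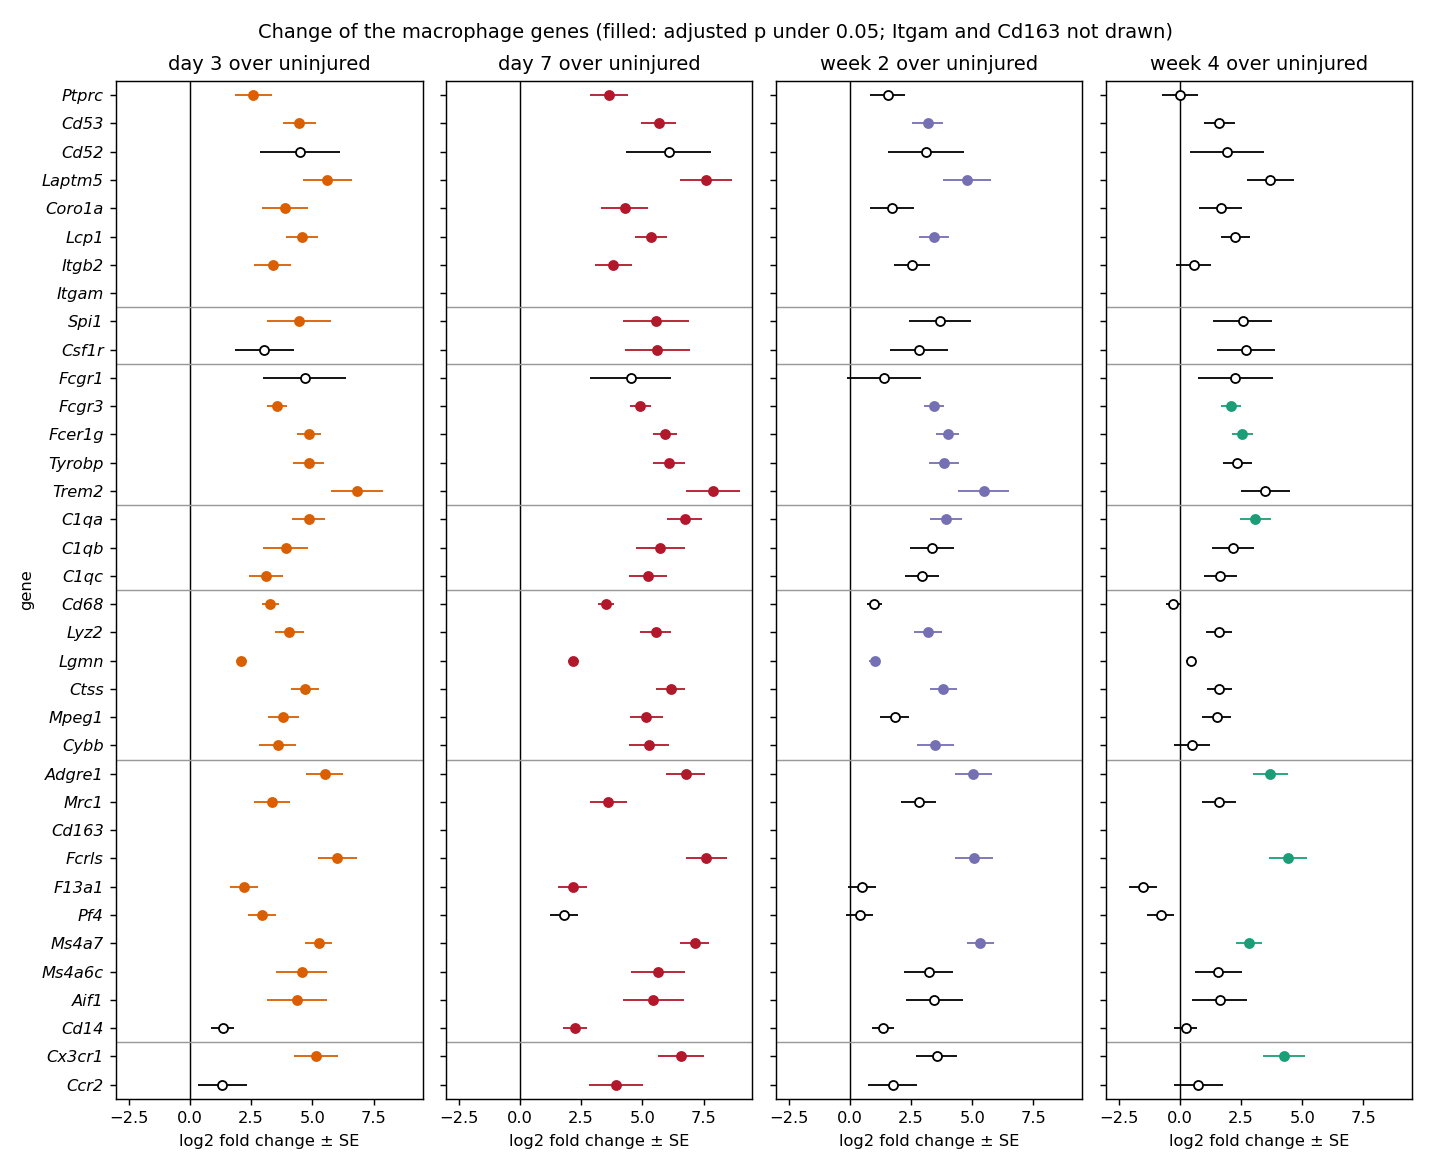
Log2 fold change over uninjured with its standard error for each gene at the 4 times after MI; filled points passed edgeR's test at an adjusted p of 0.05. Itgam and Cd163 are not drawn, because Itgam had no uninjured count and Cd163 had counts in at most 1 library of each group. The points lie farthest right at day 7, and at week 4 the 7 filled points are those named in the text.

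Single libraries carried part of the counts. Without day 3 replicate 2, 17 members were called at day 3, and without day 7 replicate 2, 20 were called at day 7. Leaving out week 2 replicate 2 left 8 at week 2, and leaving out either uninjured replicate 2 or week 4 replicate 2 left 2 at week 4. In all 10 fits that each left out 1 library, 17 of the 29 day 3 calls, 19 of the 31 day 7 calls, 4 of the 15 week 2 calls and 0 of the 7 week 4 calls were kept. Replicate 2 was the higher library for 30 of the 36 genes at day 3, 32 at day 7, 23 at week 2 and 29 at week 4, and for 15 in the uninjured group. No call of a member reversed its direction in any fit. With no filter on low counts, 26 members were called at week 2 (2.64% of all genes called higher) and 18 at week 4 (3.75%). In fits of only the 2 groups compared, 8 (0.846%) and 2 (3.42%) were called.

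Of 8 genes that white blood cells express at large, 6 rose at day 3, 6 at day 7, 3 at week 2 and 0 at week 4. Ptprc, which encodes the common leukocyte antigen CD45, had 1.01 and 6.32 CPM in the uninjured libraries, 18.2 and 26.05 at day 3, 45.8 and 46.9 at day 7, 12.9 and 8.55 at week 2 and 1.86 and 5.505 at week 4. Its day 7 libraries were close to each other and above all others, while its uninjured libraries differed by several fold and its week 4 libraries lay between them (log2 fold change 3.66 ± 0.78 SE, edgeR adjusted p = 0.0155 at day 7). Laptm5, a lysosomal membrane protein of blood cells, had 1.07 and 0 CPM in the uninjured libraries, 20.5 and 32.4 at day 3, 65.1 and 144 at day 7, 18.6 and 11.1 at week 2 and 5.38 and 8.57 at week 4, and rose at day 7 by a log2 fold change of 7.596 ± 1.06 (SE, edgeR adjusted p = 0.00307). Lcp1 encodes L-plastin, an actin bundler of leukocytes. It had 4.32 and 3.81 CPM in the uninjured libraries, 79.1 and 116 at day 3, 142 and 193 at day 7, 43.96 and 44.9 at week 2 and 6.56 and 32.6 at week 4, with a log2 fold change of 5.36 ± 0.66 (SE, edgeR adjusted p = 0.00123) at day 7 and one of 3.45 ± 0.61 (edgeR adjusted p = 0.0193) at week 2. All 8 libraries after MI were above both uninjured libraries for Lcp1.

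The other members of the leukocyte group are a tetraspanin (Cd53), an actin regulator (Coro1a), a small surface glycoprotein (Cd52) and the 2 chains of the integrin Mac-1 (Itgb2 and Itgam). Cd53 had 42.1 and 80.5 CPM at day 7, against 1.92 and 0.482 CPM in uninjured libraries (log2 fold change 5.66 ± 0.704, edgeR adjusted p = 0.000552), and still rose at week 2 (3.18 ± 0.64, edgeR adjusted p = 0.0235). Coro1a had 20.4 and 32.1 CPM at day 7 and 0.3198 and 2.36 CPM in uninjured libraries, and rose at day 7 by 4.29 ± 0.96 (edgeR adjusted p = 0.019) on the log2 scale. Itgb2 had 37.6 and 25.4 CPM at day 7 and 2.88 and 1.55 CPM in uninjured libraries (3.82 ± 0.76, edgeR adjusted p = 0.011). Cd52 was not called at any time, although both day 7 libraries (9.01 and 24.5 CPM) were above both uninjured libraries (0.1599 and 0.322 CPM), with an edgeR adjusted p of 0.0552. Itgam had 3.98 and 8.703 CPM at day 3, 13.4 and 5.06 at day 7, 0 and 3.66 at week 2 and 0 and 1.51 at week 4, against no count in either uninjured library. Set against 3 counts per uninjured library, its mean was at least 39.5-fold higher at day 3 and at least 57.7-fold higher at day 7, without passing the test (edgeR adjusted p = 0.0717 and 0.0842).

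Both lineage regulators rose at day 7, and Spi1 alone rose at day 3. None of these calls was kept in all 10 fits that each left out 1 library. Spi1 (ENSMUSG00000002111) had 0.9595 and 0 CPM in the uninjured libraries, 5.105 and 16.1 at day 3, 20.6 and 25.7 at day 7, 3.77 and 8.61 at week 2 and 1.24 and 4.48 at week 4. Its log2 fold change of 5.57 ± 1.36 (SE, edgeR adjusted p = 0.0289) at day 7 rested on a gene with 18 and 0 counts in the uninjured libraries. Csf1r (ENSMUSG00000024621), the receptor for CSF1 and interleukin 34, had 2.98 and 0.0536 CPM in the uninjured libraries, 4.22 and 20.8 at day 3, 50.99 and 99.1 at day 7, 14.2 and 7.48 at week 2 and 8.72 and 11.2 at week 4. The day 7 libraries stood above all others for Csf1r, with a log2 fold change of 5.62 ± 1.33 (SE, edgeR adjusted p = 0.0385), whereas day 3 replicate 1 lay close to uninjured replicate 1 (edgeR adjusted p = 0.153). Neither regulator was called at week 2 or week 4. The span of Csf1r overlaps that of Hmgxb3 in the table. Ptprc overlaps A130071D04Rik, Cd52 overlaps Crybg2, Coro1a overlaps Bola2, Itgam overlaps Gm49368, and Cx3cr1 overlaps 5 genes. Since the strand that was counted is not given, reads of these overlaps cannot be told apart.

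Of the 5 Fc and activating receptors, 4 rose at day 3, 4 at day 7, 4 at week 2 and 2 at week 4. Fcer1g and Tyrobp encode the signalling adaptors shared by these receptors. Fcer1g had 1.65 and 1.13 CPM in the uninjured libraries, 36.2 and 45.4 at day 3, 63.9 and 105 at day 7, 18.2 and 26.4 at week 2 and 6.13 and 10.2 at week 4. It was called higher at all 4 times, with log2 fold changes of 4.87 ± 0.48 (edgeR adjusted p = 0.000118) at day 3, 5.92 ± 0.495 (edgeR adjusted p = 2.99e-05) at day 7, 3.999 ± 0.46 (edgeR adjusted p = 0.000596) at week 2 and 2.55 ± 0.44 (edgeR adjusted p = 0.0105) at week 4. Every library after MI was above both uninjured libraries. Tyrobp had 0.9595 and 0.643 CPM in the uninjured libraries, 16.2 and 30.5 at day 3, 41.1 and 69.2 at day 7, 9.27 and 14.1 at week 2 and 2.35 and 5.85 at week 4, with a log2 fold change of 6.09 ± 0.67 (SE, edgeR adjusted p = 0.00025) at day 7, and did not pass at week 4 (edgeR adjusted p = 0.0652).

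Trem2 encodes a lipid-sensing receptor that signals through Tyrobp. It had 0.373 and 0 CPM in the uninjured libraries, 15.02 and 29.2 at day 3, 38.2 and 53.6 at day 7, 4.72 and 12.4 at week 2 and 1.05 and 3.26 at week 4, which gave the group its highest fold change at day 7 (log2 fold change 7.89 ± 1.11 SE, edgeR adjusted p = 0.00151), over uninjured libraries with 7 and 0 counts. Fcgr3, a low-affinity receptor for IgG, had 98.6 and 116 CPM at day 7 and 4.32 and 2.73 CPM in uninjured libraries (log2 fold change 4.92 ± 0.44 SE, edgeR adjusted p = 4.67e-05), and remained higher at week 4 with 11.01 and 19.0 CPM (2.09 ± 0.39, edgeR adjusted p = 0.0162). Fcgr1, the high-affinity receptor for IgG, was not called at any time: it had 11.5 and 8.09 CPM at day 3 and 7.09 and 10.5 at day 7, against 0.107 and 0.643 CPM in uninjured libraries, with edgeR adjusted p = 0.0951 and 0.138.

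The 3 chains of complement C1q, the recognition molecule of the classical pathway and largely a macrophage product, lie side by side on chromosome 4. All 3 rose at day 3 and at day 7, and C1qa alone was called at week 2 and at week 4. C1qa had 0.373 and 1.82 CPM in the uninjured libraries, 24.2 and 40.02 at day 3, 71.5 and 163 at day 7, 15.04 and 18.9 at week 2 and 7.24 and 11.4 at week 4, with a log2 fold change of 6.73 ± 0.72 (SE, edgeR adjusted p = 0.000282) at day 7 and 3.08 ± 0.64 (edgeR adjusted p = 0.0292) at week 4. C1qb had 1.33 and 7.88 CPM in the uninjured libraries, 35.2 and 103 at day 3, 126 and 364 at day 7, 39.7 and 54.4 at week 2 and 24.2 and 17.7 at week 4. C1qc had 1.71 and 9.11 CPM in the uninjured libraries, 33.1 and 60.5 at day 3, 133 and 274 at day 7, 36.5 and 47.1 at week 2 and 12.7 and 21.1 at week 4. In each of the 3 genes, day 7 replicate 2 was far above day 7 replicate 1, and both were above every other library. Uninjured replicate 2 was also above uninjured replicate 1 for all 3. At day 7 C1qb had a log2 fold change of 5.73 ± 0.99 (SE, edgeR adjusted p = 0.015), and C1qc had one of 5.23 ± 0.77 (edgeR adjusted p = 0.00427).

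All 6 lysosomal and antimicrobial genes rose at day 3 and at day 7, 4 rose at week 2 and 0 at week 4. Lyz2 (ENSMUSG00000069516) encodes lysozyme of myeloid cells and is nearly identical to Lyz1, so that its reads are uncertain. It had 40.8 and 12.6 CPM in the uninjured libraries, 337 and 549 at day 3, 902 and 1585 at day 7, 259 and 233 at week 2 and 57.5 and 105 at week 4, with a log2 fold change of 5.54 ± 0.63 (SE, edgeR adjusted p = 0.0013) at day 7. Ctss, a lysosomal protease of antigen-presenting cells, had 8.795 and 4.23 CPM in the uninjured libraries, 136 and 206 at day 3, 393 and 539 at day 7, 51.2 and 134 at week 2 and 14.5 and 25.04 at week 4, with a log2 fold change of 6.16 ± 0.602 (SE, edgeR adjusted p = 0.000374) at day 7. Both genes kept the same order of groups, with day 7 first and day 3 second, and with no overlap between those 2 groups. Mpeg1, a pore-forming protein of phagosomes, and Cybb, the membrane subunit of the phagocyte NADPH oxidase, rose at day 7 by 5.16 ± 0.67 (edgeR adjusted p = 0.000925) and 5.29 ± 0.82 (edgeR adjusted p = 0.00406) on the log2 scale.

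Lgmn and Cd68 had the smallest fold changes of that group at day 7. Lgmn encodes legumain, a lysosomal protease that fibroblasts also make, and had 116 and 90.4 CPM in the uninjured libraries, 461 and 424 at day 3, 444 and 495 at day 7, 189.8 and 224 at week 2 and 149.8 and 133 at week 4. Its day 3 and day 7 libraries overlapped and stood above all others, with a log2 fold change of 2.19 ± 0.21 (SE, edgeR adjusted p = 9.86e-05) at day 7. Cd68, a lysosomal glycoprotein, had 9.17 and 9.65 CPM in the uninjured libraries, 75.3 and 109 at day 3, 112 and 105 at day 7, 18.6 and 19.02 at week 2 and 9.59 and 6.09 at week 4. Its day 3 and day 7 libraries stood above all others (log2 fold change 3.52 ± 0.34 SE, edgeR adjusted p = 8.74e-05 at day 7), its week 2 libraries lay above both uninjured libraries without passing (edgeR adjusted p = 0.172), and its week 4 libraries overlapped the uninjured ones.

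Of the 10 surface and secreted proteins, 8 rose at day 3, 8 at day 7, 3 at week 2 and 3 at week 4. Adgre1 (ENSMUSG00000004730), which encodes the macrophage antigen F4/80, had 0.853 and 0.7504 CPM in the uninjured libraries, 14.5 and 58.5 at day 3, 76.97 and 101 at day 7, 17.2 and 36.3 at week 2 and 6.497 and 14.3 at week 4. It was called higher at all 4 times, with 6.78 ± 0.79 (edgeR adjusted p = 0.000552) at day 7 and 3.69 ± 0.72 (edgeR adjusted p = 0.0223) at week 4 on the log2 scale. Fcrls, an Fc receptor-like protein known in mouse from microglia, had 0.533 and 0.322 CPM in the uninjured libraries, 16.2 and 40.2 at day 3, 57.6 and 113 at day 7, 8.66 and 20.7 at week 2 and 4.83 and 13.5 at week 4, and Ms4a7, a tetraspanning membrane protein, had 1.01 and 1.13 CPM in the uninjured libraries, 34.2 and 48.2 at day 3, 128 and 176 at day 7, 28.03 and 58.5 at week 2 and 4.27 and 10.9 at week 4. Both were called higher at all 4 times, with log2 fold changes at day 7 of 7.62 ± 0.84 (edgeR adjusted p = 0.000334) for Fcrls and 7.14 ± 0.59 (edgeR adjusted p = 2.75e-05) for Ms4a7. In these 3 genes each library after MI lay above both uninjured libraries.

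Mrc1, the mannose receptor CD206, had 0.906 and 3.81 CPM in the uninjured libraries, 15.5 and 33.3 at day 3, 16.5 and 41.2 at day 7, 20.8 and 12.2 at week 2 and 6.93 and 7.405 at week 4. It rose at day 3 and day 7 (3.37 ± 0.74, edgeR adjusted p = 0.011 and 3.61 ± 0.74, edgeR adjusted p = 0.0129), and its day 7 libraries overlapped those of day 3 and week 2. Ms4a6c and Aif1, which encodes the actin-binding protein IBA1, were called higher at day 3 and at day 7. At day 7 Ms4a6c had 19.5 and 33.9 CPM, where uninjured libraries had 0.9595 and 0.107, and Aif1 had 11.9 and 12.2 CPM, where uninjured libraries had 0.1599 and 0.375. Ms4a6c has close relatives in its gene family, with which it may share reads. Cd14, the co-receptor for endotoxin, had 85.7 and 149 CPM at day 7, against 12.9 and 36.2 CPM in uninjured libraries (log2 fold change 2.26 ± 0.48 SE, edgeR adjusted p = 0.0158), and did not pass at day 3 (edgeR adjusted p = 0.0864).

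F13a1, the A chain of coagulation factor XIII, and Pf4, a chemokine of platelets that macrophages also express, had their highest mean at day 3. F13a1 had 7.996 and 10.4 CPM in the uninjured libraries, 35.6 and 49.9 at day 3, 17.4 and 65.01 at day 7, 16.6 and 9.45 at week 2 and 2.54 and 3.95 at week 4. Pf4 had 3.198 and 9.76 CPM in the uninjured libraries, 45.0 and 55.6 at day 3, 14.8 and 30.4 at day 7, 8.99 and 8.16 at week 2 and 3.22 and 4.29 at week 4. Both rose at day 3 (2.21 ± 0.58, edgeR adjusted p = 0.0281 and 2.96 ± 0.58, edgeR adjusted p = 0.00597 on the log2 scale). At day 7 F13a1 passed the test with an edgeR adjusted p of 0.0433 and Pf4 did not (0.0752), and Pf4 was lower in both day 7 libraries than in both day 3 libraries without passing (log2 fold change -1.16 ± 0.54, edgeR adjusted p = 0.339). At week 4 both means were under the uninjured mean, with 3.24 ± 0.996 CPM at week 4 against 9.22 ± 1.74 CPM in uninjured libraries for F13a1, and 3.75 ± 0.756 CPM at week 4 against 6.48 ± 4.64 CPM in uninjured libraries for Pf4 (SD, n = 2 each), and neither difference passed (edgeR adjusted p = 0.282 and 0.625).

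Cd163, the haemoglobin scavenger receptor that marks many resident macrophages, did not follow the others. It had 0 and 1.02 CPM in the uninjured libraries, 0.0594 and 0 at day 3, 4.28 and 0 at day 7, 5.495 and 0 at week 2 and 0 and 1.61 at week 4. Counts were present in at most 1 library of each group, and no comparison passed. The sign of its difference from uninjured changed with single libraries.

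Of the 2 chemokine receptors, Cx3cr1 rose at day 3, day 7 and week 4, and Ccr2 at day 7. Cx3cr1, the receptor for fractalkine, had 0.4798 and 0.161 CPM in the uninjured libraries, 5.94 and 17.3 at day 3, 21.2 and 41.7 at day 7, 2.94 and 4.67 at week 2 and 8.42 and 4.09 at week 4, with a log2 fold change of 6.59 ± 0.94 (SE, edgeR adjusted p = 0.00132) at day 7 and 4.26 ± 0.86 (edgeR adjusted p = 0.0228) at week 4. At week 2 its edgeR adjusted p was 0.0559. Ccr2 had 1.33 and 1.23 CPM in the uninjured libraries, 5.58 and 0.887 at day 3, 14.5 and 24.5 at day 7, 2.61 and 6.02 at week 2 and 3.22 and 1.12 at week 4, with a log2 fold change of 3.92 ± 1.09 (SE, edgeR adjusted p = 0.049) at day 7. The day 3 libraries of Ccr2 lay on either side of the uninjured ones, and its sign at day 3 depended on 1 library.

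Day 7 against day 3 gave no call among the 36 genes in edgeR's test, against 0.822% of all tested genes called higher and 0.555% called lower. At an unadjusted p under 0.05, 14 members were higher at day 7 (6.95% of all tested genes), and DESeq2 called 6 (3.67%). Without the filter on low counts edgeR called 13 higher (2.62% of all genes), and in a fit of only these 2 groups it called 1 (0.459%). With the replicate number as a block it called 2 (0.862%). Both day 7 libraries lay above both day 3 libraries for 26 members (21% of all tested genes) and below them for 1, Pf4 (23.7%), and the median log2 fold change was 1.22. Ms4a7 came nearest to the threshold, with 128 and 176 CPM at day 7 against 34.2 and 48.2 CPM at day 3 (log2 fold change 1.88 ± 0.45, edgeR adjusted p = 0.0652).

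At week 4, 23 of the 36 genes fell against day 7, where 1.52% of all tested genes were called lower, and 0 rose (0.895% of all tested genes). The median log2 fold change of the 36 was -3.57. The 6 lysosomal and antimicrobial genes all fell, as did 5 of 8 leukocyte genes, 4 of 5 Fc and activating receptors, 2 of 3 C1q chains and 6 of 10 surface and secreted proteins. Neither lineage regulator and neither chemokine receptor was called. Cybb had 1.55 and 5.603 CPM at week 4 against 88.1 and 112 CPM at day 7 (log2 fold change -4.79 ± 0.79 SE, edgeR adjusted p = 0.0159), and Ctss had 14.5 and 25.04 CPM against 393 and 539 CPM (log2 fold change -4.56 ± 0.55 SE, edgeR adjusted p = 0.00679). Both week 4 libraries lay below both day 7 libraries for 35 of the 36 genes (24.5% of all tested genes). Fewer members were called lower whenever a library of day 3, day 7, week 2 or week 4 was left out. The drop was largest without day 7 replicate 2, week 4 replicate 1 or week 4 replicate 2. More were called without either uninjured library. The share of all tested genes called lower fell without a library of day 3, day 7 or week 4. It rose without one of week 2 or of the uninjured group.

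By week 2, Cd68, Lgmn and Mpeg1 had already fallen against day 7, where 0.454% of all tested genes were called lower, and 0 members had risen (0.194%). Cd68 had 18.6 and 19.02 CPM at week 2 against 112 and 105 CPM at day 7 (log2 fold change -2.52 ± 0.32 SE, edgeR adjusted p = 0.00637), and Mpeg1 had 13.8 and 8.72 CPM against 101 and 125 CPM (log2 fold change -3.33 ± 0.61 SE, edgeR adjusted p = 0.0416). Both week 2 libraries lay below both day 7 libraries for 34 of 36 genes (22.6% of all tested genes). They lay above both day 7 libraries for 0 of the 36 (20% of all tested genes). Fewer members were called without day 7 replicate 2 or without either of the week 2 libraries. More were called without day 7 replicate 1 or without any 1 library of day 3, week 4 or the uninjured group. In these fits the share of all tested genes called lower mostly moved the same way. As exceptions, it rose without week 2 replicate 1 and fell without either week 4 library. DESeq2 called 18 lower (3.88% of all genes it tested), and 26 were lower at an unadjusted p under 0.05 (8.69% of all tested genes). The comparisons of week 2 and week 4 with day 7 share the day 7 libraries with the comparison of day 7 with uninjured.

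Genes outside the 36 gave further readings on the same libraries. Of 30 other genes of phagocytes, 9 rose at day 3, 13 at day 7, 3 at week 2 and 0 at week 4. Fgr, a Src-family kinase of myeloid cells, and Clec7a, the receptor for fungal glucans, had no count in either uninjured library. At day 7 they had 5.12 and 12.5 CPM (Fgr) and 8.02 and 8.98 CPM (Clec7a), which is at least 54.9-fold and 53.0-fold higher than 3 counts per uninjured library. Fcgr2b, the inhibitory IgG receptor, had 34.4 and 60.4 CPM at day 7 against 1.44 and 1.45 CPM in uninjured libraries (log2 fold change 5.03 ± 0.67, edgeR adjusted p = 0.000853).

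Of 12 markers of resident cardiac macrophages, 9 could be tested. Of these, 0 were called higher at any time against uninjured and 1 was called lower, at day 3. At day 7, 8 of the 9 had a positive log2 fold change, with a median of 1.93. Both day 7 libraries lay above both uninjured libraries for 6 of them (27.3% of all tested genes) and below for 1 (27.7%). Lyve1 had 3.89 and 11.9 CPM at day 7 and 2.66 and 1.45 CPM in uninjured libraries (1.93 ± 0.997, edgeR adjusted p = 0.306). Timd4 had 1.77 CPM in day 7 replicate 1 and no count in any other library, and Siglec1 had no count in any library.

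Of 14 monocyte and inflammatory macrophage genes, 12 could be tested, and 4 rose at day 3, 5 at day 7, 4 at week 2 and 3 at week 4. At day 3 these were Hp, haptoglobin, with 90.5 and 56.3 CPM against 0.0533 and 0.322 CPM in uninjured libraries (8.56 ± 1.24, edgeR adjusted p = 0.00446), Spp1, osteopontin, with 1001 and 1690 against 33.6 and 22.03 CPM (5.596 ± 0.34, edgeR adjusted p = 3.08e-06), Plac8 with 56.8 and 47.9 against 1.23 and 1.18 CPM (5.44 ± 0.51, edgeR adjusted p = 8.68e-05), and Fn1. Fibronectin and osteopontin are also made by fibroblasts. Ly6c2, which marks inflammatory monocytes in mouse, had 0.178 and 1.72 CPM at day 3 and 0.107 and 0 CPM in uninjured libraries and did not pass. Of 7 MHC class II genes, which present antigen, 4 rose at day 3, 5 at day 7, 3 at week 2 and 2 at week 4. Cd74, the invariant chain, had 679 and 913 CPM at day 7 against 40.2 and 31.6 CPM in uninjured libraries (4.47 ± 0.48, edgeR adjusted p = 0.000471). Of these 7, 4 were also called higher at day 7 than at day 3.

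Genes listed as ligands of the receptors among the members, with the chemokine Ccl8, were measured as well, 7 of 8 passing the filter. At day 3, 5 rose: Ccl2, Ccl7 and Ccl12, which bind CCR2 (Ccl7 named after its values were seen), Il34, which binds the CSF1 receptor, and Cx3cl1, which binds CX3CR1. Ccl12 had 11.04 and 16.8 CPM at day 3 against 0.213 and 1.45 CPM in uninjured libraries (4.06 ± 1.14, edgeR adjusted p = 0.0363), and Ccl2 had 699.9 and 732 CPM against 61.1 and 161 CPM (2.69 ± 0.45, edgeR adjusted p = 0.00422). At day 7, when Ccr2 was at its highest, Il34 and Cx3cl1 were called and Ccl2 had 136 and 249 CPM (0.79 ± 0.43, edgeR adjusted p = 0.337). At week 2, Ccl8 was the only one of the 7 to pass, and it was lower (-2.51 ± 0.44, edgeR adjusted p = 0.00974). At week 4, Il34 and Cx3cl1 were higher and Ccl7 and Ccl8 were lower, Ccl8 being named after its values were seen. Csf1 had 197 and 145 CPM at day 3 and 190 and 131 CPM in uninjured libraries (0.09 ± 0.299, edgeR adjusted p = 0.903).

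Markers of other cell types moved with the times in part, and their part in the results on the 36 genes was not tested. Of 13 neutrophil markers, 8 could be tested and 0 passed against uninjured, and Ly6g, Ltf and Ngp had no count in any library. Their summed level was 13.3 to 14.7 CPM at day 3 and 27.4 to 29.5 CPM at day 7, against 0.268 to 0.320 CPM in uninjured libraries, while week 2 and week 4 had 0.390 to 4.27 CPM. Of 12 T and NK cell markers, 2 could be tested and 0 passed, with Cd8a, Ncr1, Gzma and Prf1 at 0 throughout and a summed level of 0.640 to 6.45 CPM at day 7, against 0.320 to 1.07 CPM in uninjured libraries. None of 5 tested dendritic cell genes and neither of 2 tested mast cell genes passed, and Flt3 and Ms4a2 were at 0 throughout. The dendritic list summed to 14.8 to 21.6 CPM at day 7, against 14.9 to 18.8 CPM in uninjured libraries, and the mast cell list to 10.6 to 19.3 CPM, against 1.23 to 2.88 CPM. Of 6 B cell markers, 3 could be tested and Ighm alone rose at day 7 (3.69 ± 0.68, edgeR adjusted p = 0.00729), with a summed level of 32.0 to 41.9 CPM at day 7, against 2.13 to 3.75 CPM in uninjured libraries.

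Of 12 endothelial markers, 6 fell and 0 rose at day 3, and 5 rose and 1 fell at day 7. Their summed level averaged 337 ± 97.4 CPM at day 3 and 1057 ± 201 CPM at day 7, against 768 ± 130 CPM in the uninjured libraries (SD, n = 2 each). Pericyte and smooth muscle markers fell in 2 of 8 at day 3. None of the 5 tested erythroid genes passed, though their sum was 142 to 3717 CPM in the libraries after MI and 4132 to 5986 CPM in the uninjured libraries, with Slc4a1 at 0 throughout. Of 10 cardiomyocyte genes, Nppa rose and Myh6 fell at day 7.

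The genes most like the 36 in pattern were sought among all other tested genes by Pearson's correlation over the 10 libraries with the mean of the members' standardised log2 levels, as a description without a test. The 10 highest were Otulinl (0.988), Alox5ap (0.978), Pdia5 (0.976), Cd300c2 (0.976), C3ar1 (0.975), Gmfg (0.974), Mrpl34 (0.973), Evi2b (0.968), Col5a1 (0.968) and Wfdc17 (0.967). Alox5ap, a partner of 5-lipoxygenase in leukotriene synthesis, had 24.5 and 54.2 CPM at day 7 against 1.49 and 1.45 CPM in uninjured libraries, and C3ar1, the receptor for complement C3a, had 103 and 158 CPM against 2.56 and 1.23 CPM. Not all were blood cell genes. Col5a1, a fibrillar collagen chain of fibroblasts, had 340 and 465 CPM at day 7 against 87.6 and 61.0 CPM in uninjured libraries, and Pdia5, a protein disulfide isomerase, had 157 and 154 CPM against 36.7 and 34.0 CPM. The libraries of a group share their time after MI, so that a gene whose level peaks at day 7 scores high by this measure in whatever cell it is made.

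ATAC-seq was read at the same genes. The method cuts open chromatin with the Tn5 transposase, and each deposited file lists the peaks of 1 library with the authors' fold enrichment for every peak. The lists held 63933 and 71949 peaks in the uninjured libraries, 105738 and 107832 at day 3, 93781 and 88397 at day 7, 77989 and 79750 at week 2, and 69288 and 70256 at week 4, so that presence in a list moves with its length. Of the 36 genes, 28 have a start site in the RefSeq table for GRCm38.p6. Itgb2, Tyrobp, Csf1r, Spi1, Adgre1, Cd14, Cd52 and C1qa are not in it.

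A peak within 500 bases of the start was listed for 4 and 5 of these 28 genes in the uninjured libraries, 9 and 11 at day 3, 11 and 19 at day 7, 6 and 5 at week 2, and 5 and 5 at week 4. The share of all 16700 genes with a start in the table was 63.2 and 63.8% in the uninjured libraries, 68.8 and 69.7% at day 3, 67.3 and 66.1% at day 7, 65.1 and 64.8% at week 2, and 63.4 and 62.9% at week 4. The members' 4 and 5 of 28 correspond to 14.3 and 17.9%, and their 11 and 19 of 28 at day 7 to 39.3 and 67.9%. The members were thus below the share of all genes in each library but day 7 replicate 2. That exception was lost with only peaks of −log10 q of 5 or more and with the top 60000 peaks of each list: in both cases 9 of the 28 (32.1%) had a start peak in day 7 replicate 2, where 63.8% and 63.7% of all genes did.

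Coro1a, Cd68 and Lgmn had a start peak in all 10 libraries, and Pf4 in all but week 4 replicate 2. At Cd68, where RNA was highest at day 3 and day 7, the fold enrichment was 81.5 and 69.8 in the uninjured libraries, 61.9 and 51.8 at day 3, 43.2 and 42.7 at day 7, 62.7 and 55.5 at week 2, and 63.2 and 48.3 at week 4, and at Lgmn it was 30.5 to 46.6 in all libraries. Another 8 genes had no start peak in any library: Trem2, Cybb, Cd163, Fcrls, F13a1, Ms4a7, Aif1 and Ccr2. Trem2, Fcrls and Ms4a7 were among the members with the highest fold changes in RNA at day 7.

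**Figure D4:**
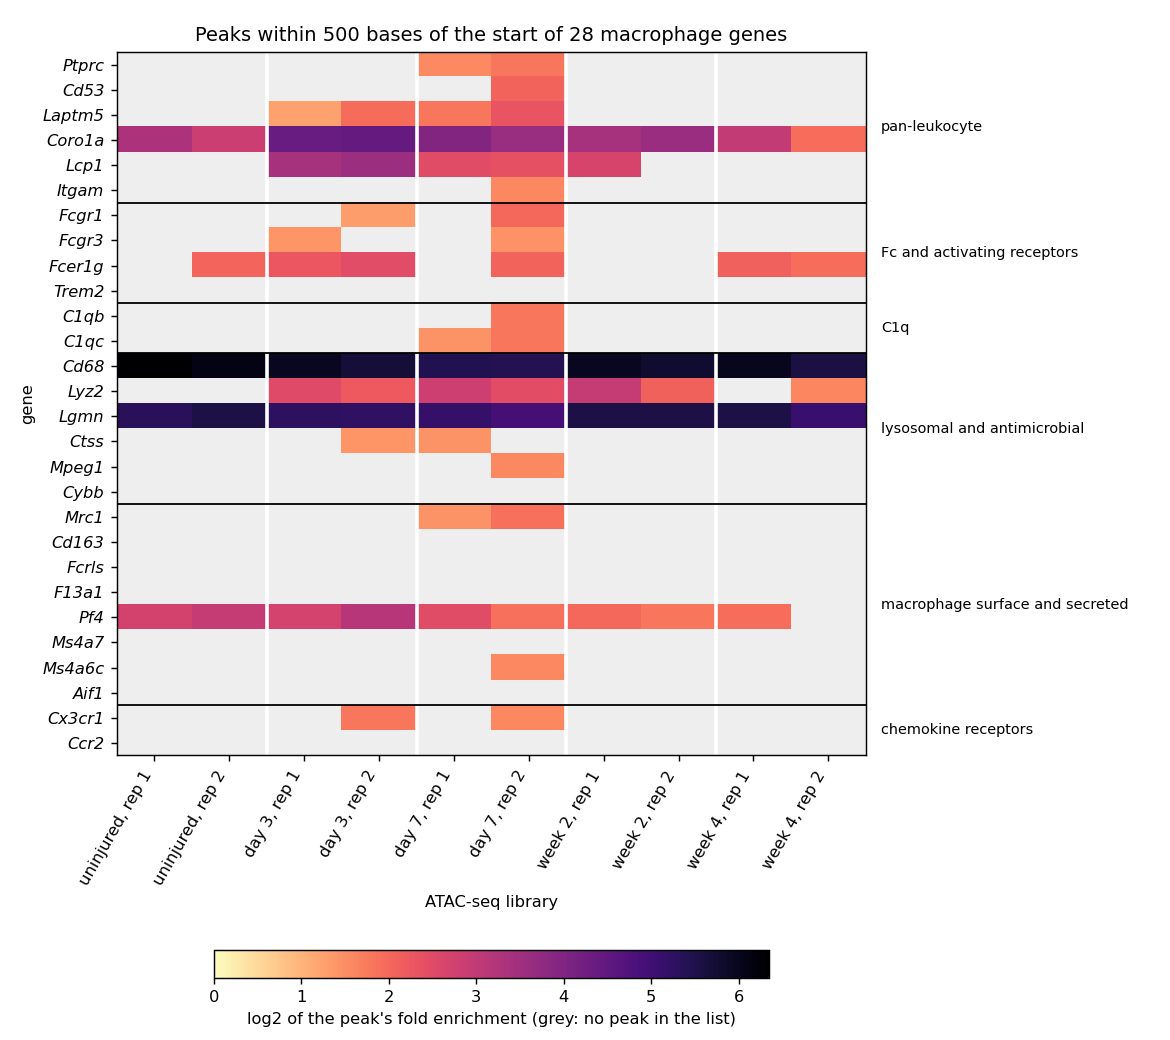
Peaks within 500 bases of the start of the 28 genes with a known start (rows) in each ATAC library (columns); colour is log2 of the authors' fold enrichment and grey means that the list holds no peak there. Coro1a, Cd68 and Lgmn are coloured in all 10 columns, and most other colour lies in the day 3 and day 7 columns.

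At 6 genes a start peak was listed in both day 7 libraries and in neither uninjured library. Their fold enrichments at day 7 were 2.95 and 3.48 at Ptprc, 3.49 and 4.97 at Laptm5, 5.64 and 5.21 at Lcp1, 2.68 and 3.48 at C1qc, 6.98 and 5.46 at Lyz2, and 2.68 and 3.72 at Mrc1. Of these, Laptm5, Lcp1 and Lyz2 also had one in both day 3 libraries, Lyz2 alone in both week 2 libraries, and none in both week 4 libraries. At Lcp1 the peak was stronger at day 3, with 10.6 and 11.8, than at day 7. In all, 13 genes had a start peak in some library of day 3 or day 7 and in no other library, and for 5 of these it was day 7 replicate 2 alone. The share of all genes with such gains is not given here, and the day 3 and day 7 lists were longer than the uninjured ones. With only peaks of −log10 q of 5 or more, 6 and 9 of the 28 genes had a start peak at day 7 (65.3 and 63.8% of all genes). In the uninjured libraries 4 and 5 had one (62.3 and 62.7% of all genes).

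The 250 bases before the starts of these 6 genes are shown because their peaks are listed at day 7, when all 6 genes were called higher in RNA, beside those of Lgmn and Cd68, whose start peaks are in every list. They are RefSeq sequence of GRCm38.p6, read 5′ to 3′ on the gene's strand. Capitals mark GAGGAA and GGAAGT, searched on both strands (as TTCCTC and ACTTCC on the other), which are cores of sites bound by PU.1 and other ETS factors and can overlap by their shared GGAA.
Ptprc, chr1:138175306-138175555, minus strand: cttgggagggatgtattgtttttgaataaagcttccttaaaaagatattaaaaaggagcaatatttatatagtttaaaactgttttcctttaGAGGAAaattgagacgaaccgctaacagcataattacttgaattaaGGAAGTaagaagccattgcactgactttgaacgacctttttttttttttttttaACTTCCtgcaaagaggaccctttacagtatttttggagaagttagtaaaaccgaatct
Laptm5, chr4:130913066-130913315, plus strand: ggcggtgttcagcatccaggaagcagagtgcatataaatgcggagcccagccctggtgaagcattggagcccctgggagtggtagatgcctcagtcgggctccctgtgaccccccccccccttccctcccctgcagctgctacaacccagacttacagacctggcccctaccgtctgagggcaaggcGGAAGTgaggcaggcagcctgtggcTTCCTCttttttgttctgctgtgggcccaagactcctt
Lcp1, chr14:75130873-75131122, plus strand: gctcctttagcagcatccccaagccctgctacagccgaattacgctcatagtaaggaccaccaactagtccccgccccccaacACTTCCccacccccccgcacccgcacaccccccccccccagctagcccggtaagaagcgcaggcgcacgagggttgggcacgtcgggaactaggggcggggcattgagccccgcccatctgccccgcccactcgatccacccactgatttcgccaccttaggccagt
C1qc, chr4:136892915-136893164, minus strand: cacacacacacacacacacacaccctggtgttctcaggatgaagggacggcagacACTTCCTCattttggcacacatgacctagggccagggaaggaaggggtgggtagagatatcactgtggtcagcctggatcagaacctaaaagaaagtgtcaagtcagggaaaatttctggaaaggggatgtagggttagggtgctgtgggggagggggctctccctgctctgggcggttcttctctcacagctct
Lyz2, chr10:117282273-117282522, minus strand: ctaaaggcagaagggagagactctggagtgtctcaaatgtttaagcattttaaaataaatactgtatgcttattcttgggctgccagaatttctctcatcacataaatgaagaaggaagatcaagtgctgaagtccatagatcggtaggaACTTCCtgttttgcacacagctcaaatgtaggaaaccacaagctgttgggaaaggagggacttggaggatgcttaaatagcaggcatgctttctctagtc
Mrc1, chr2:14229164-14229413, plus strand: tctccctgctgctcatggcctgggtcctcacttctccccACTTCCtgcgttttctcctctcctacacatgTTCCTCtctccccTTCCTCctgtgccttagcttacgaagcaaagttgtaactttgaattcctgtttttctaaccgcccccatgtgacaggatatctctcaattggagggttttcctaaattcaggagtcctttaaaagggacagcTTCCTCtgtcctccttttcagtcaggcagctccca
Lgmn, chr12:102439729-102439978, minus strand: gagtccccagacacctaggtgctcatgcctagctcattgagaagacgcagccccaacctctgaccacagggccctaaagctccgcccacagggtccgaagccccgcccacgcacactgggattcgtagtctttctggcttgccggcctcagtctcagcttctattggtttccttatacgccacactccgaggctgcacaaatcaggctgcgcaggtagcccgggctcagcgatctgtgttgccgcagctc
Cd68, chr11:69666171-69666420, minus strand: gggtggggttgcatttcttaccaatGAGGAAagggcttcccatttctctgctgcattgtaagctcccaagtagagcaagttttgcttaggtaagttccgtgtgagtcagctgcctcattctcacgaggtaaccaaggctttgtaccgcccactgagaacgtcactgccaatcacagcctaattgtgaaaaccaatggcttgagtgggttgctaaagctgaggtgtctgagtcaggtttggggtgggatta

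Each of the 6 windows shown held at least 1 of the 2 motifs. Of the 3 genes with a start peak in every list, Cd68 held GAGGAA, and Lgmn and Coro1a held neither motif. Pf4, with a start peak in every list but that of week 4 replicate 2, held both. Among the genes with no start peak in any list, Trem2, Fcrls, F13a1, Ms4a7 and Aif1 held at least 1 of the motifs, and Cybb, Cd163 and Ccr2 held neither. Over all 35 start sites of the 28 genes, GAGGAA was present in 17 (48.6%) and in 22.5% of all 20359 promoters of the same length. GGAAGT was present in 14 (40.0%) and in 20.8% of all, and either of them in 23 (65.7%) and in 37.1% of all. TGANTCA, the site of AP-1 factors, was present in 4 (11.4%) and in 6.19% of all. A match describes letters only, and some genes have more than 1 of the 35 windows, which can overlap.

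Around the genes, from 10 kb before to 10 kb after each span, the merged peaks of all libraries made 194 regions of 143319 in all. The window of Cx3cr1, whose span overlaps 5 other genes, held 32 of these regions. Of the 32, 11 were in all 10 libraries, 6 were gained at day 3 and 4 were gained at day 7, in the sense given below. Peaks per Mb of these windows were 29.2 and 31.2 in the uninjured libraries, 65.4 and 77.0 at day 3, 62.9 and 80.0 at day 7, 38.8 and 42.3 at week 2, and 37.8 and 39.8 at week 4. Near any gene the values were 36.2 and 40.6 in the uninjured libraries, 58.3 and 60 at day 3, 51.5 and 49.3 at day 7, 44.3 and 45.1 at week 2, and 40.2 in each week 4 library. The windows of the 36 genes were thus less dense than those of all genes in the uninjured libraries and denser at day 3 and day 7.

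Regions in both libraries of a time and in neither uninjured library numbered 45 of 194 at day 3 (23.2%, against 17.2% of all merged regions), 33 at day 7 (17%, against 9.29%), 10 at week 2 (5.15%, against 5.08%) and 8 at week 4 (4.12%, against 2.76%). At week 2 the share was near that of all regions. At week 4 it lay below that of all regions without week 4 replicate 2 (5.67%, against 6.95%). No region near the genes was in both uninjured libraries and in neither library of a later time, whereas of all regions 1.09% were absent so at day 3, 2.37% at day 7, 2.66% at week 2 and 3.68% at week 4. Presence in a list was not tested, since the smallest exact p of 2 libraries against 2 is 0.333 (two-sided). With each list trimmed to its 60000 peaks of lowest q, 15 of 96 regions were gained at day 3 (15.6%, against 8.9% of all) and 12 at day 7 (12.5%, against 6.82%). Without day 7 replicate 1 or day 7 replicate 2, the other library alone gave 77 (39.7%, against 16.3% of all) or 52 gained regions (26.8%, against 17.9%), and without day 3 replicate 1 there were 76 (39.2%, against 27.6%). Of the 45 regions gained at day 3, 22 were in both day 7 libraries, 9 in both week 2 libraries and 6 in both week 4 libraries.

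**Figure D5:**
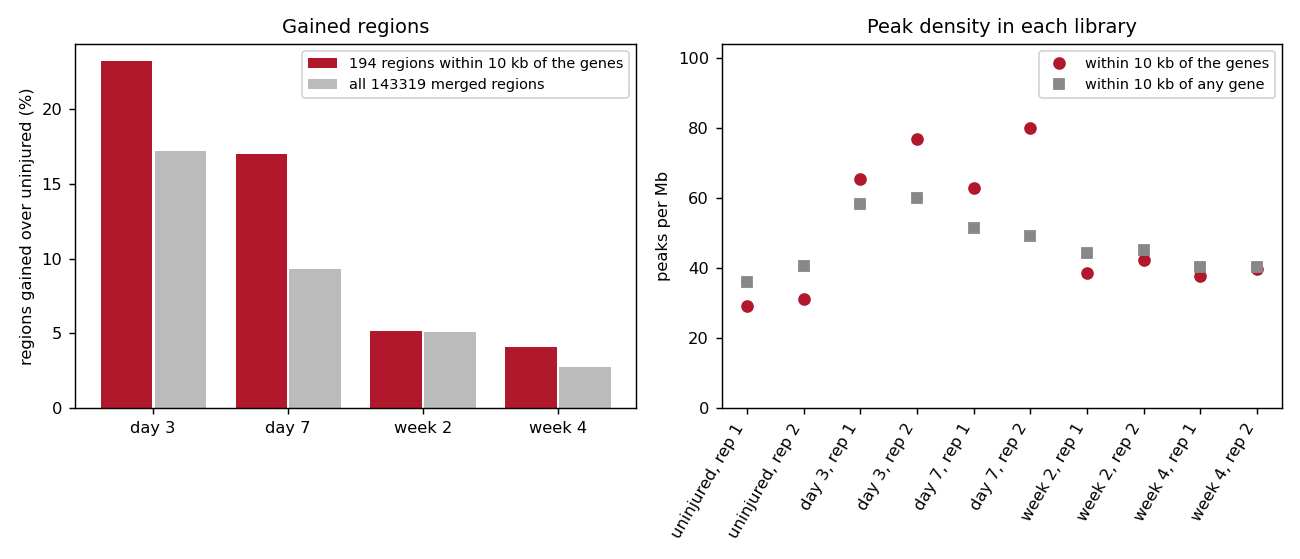
Left, percent of merged regions found in both libraries of a time and in neither uninjured library, for regions within 10 kb of the 36 genes and for all regions. Right, peaks per Mb in each ATAC library within 10 kb of the 36 genes and within 10 kb of any gene. The density near the 36 genes lies below that near any gene in the uninjured, week 2 and week 4 libraries and above it at day 3 and day 7.

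The 33 gained at day 7 had a median fold enrichment of 3.71 and a highest of 11.2, whereas the 42 regions present in all 10 libraries had a median of 17.1 at day 7. The 33 were chosen for their absence from both uninjured lists and the 42 for their presence in every list, so the gap between these medians is in part set by the choice. Of the 36 genes, 16 had no peak in their window in either uninjured library. Of these 16, 8 had one in both day 3 libraries, 11 in both day 7 libraries (68.8%), 3 in both week 2 libraries (18.8%) and 0 in both week 4 libraries. Of the 649 genes tested in RNA that likewise had none in either uninjured library, 33.3%, 23.7%, 10.9% and 5.86% had one in both libraries of these times, and genes chosen in this way can only gain a peak. Ccr2 had none in any library, and Adgre1 had 1 peak in day 7 replicate 2 alone, though its RNA rose at all 4 times.

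Of each role group the gained region with the highest fold enrichment at day 7 is given, in coordinates of the deposited lists (mm10), and all 7 were absent from both uninjured lists. Across the lower end of the span of Itgb2, chr10:77529701-77532756 had fold enrichments of 22.1 and 22.6 at day 3, 7.78 and 9.44 at day 7, 6.31 and 5.58 at week 2, and 4.07 and 3.78 at week 4. Within the span of Csf1r, chr18:61119663-61121578 had 5.52 and 7.55 at day 3, 4.29 and 5.71 at day 7, 3.98 and 3.45 at week 2, and 3.78 and 3.52 at week 4. Before Ctss, chr3:95523194-95524836 had 6.0 and 6.93 at day 3, 12.9 and 9.44 at day 7, 12.3 and 7.70 at week 2, and 4.66 and 4.28 at week 4. These 3 regions were in all 8 libraries after MI.

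The other 4 regions were each missing from some list after MI. After the end of Trem2, chr17:48355718-48356710 had 13.2 and 19.6 at day 3 and 4.83 and 5.46 at day 7 and was in no list of week 2 or week 4. Within the span of Cx3cr1, chr9:120064037-120065532 had 9.36 and 8.57 at day 3, 7.51 and 11.4 at day 7, 8.96 and 6.11 at week 2, and 5.53 in week 4 replicate 1 alone. Between C1qa and C1qc, chr4:136893568-136895320 had 3.67 in day 3 replicate 2 and 3.49 and 3.72 at day 7. Within Mrc1, chr2:14312312-14313015 had 3.49 and 3.72 at day 7 and 2.77 in week 4 replicate 2.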

How the data were processed

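RNA-seq and ATAC-seq of 5 groups (2 libraries each per assay) were analysed from the deposited files. The deposited RNA table holds expected counts (11.7% of values with decimals), which were rounded. The submitters' processing notes name, with no roles, the builds mm10 and GRCm38 and the tools MACS2, Bowtie2 2.3, STAR 2.5.3a, Trim Galore 0.6, FastQC and DESeq2. Which program counted reads, and on which strand, is not given in the sources used here. For ATAC, 1 deposited narrowPeak file per library gives its peaks with the authors' fold enrichment (a ratio), −log10 p and q, and a score. Counts were tested in R 4.3.3 with edgeR 4.0.16 (TMM, filterByExpr by group, robust quasi-likelihood fit of all 10 libraries, 5 residual degrees of freedom, Benjamini-Hochberg within each contrast), checked on simulated counts. Alternatives were DESeq2 1.42.0, no filter, a replicate block, only the 2 groups compared, and each library left out. Peaks were merged across libraries with bedtools 2.31.1 in Python 3.11.15; start sites and promoters came from RefSeq GRCm38.p6. Counting floors cover counting error only. Named genes were all 36 members by role and, of the other lists, genes drawn from the first 2 and up to 3 that passed with the largest fold change. The members and lists were chosen with earlier results of these data known. Results for some genes of the other lists are not reported here.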

Additional observations from a re-analysis of the deposited data

How the results depend on the processing

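Across the other fits, no called value of a member changed direction, and day 3, day 7 and week 4 against day 7 kept their counts within 1.5 times except when libraries were left out. Without the filter on low counts, 26 members were called at week 2, 18 at week 4, 13 for day 7 against day 3 and 24 for week 2 against day 7 (2.64, 3.75, 2.62 and 2.89% of all genes called that way). DESeq2 called 25, 13, 6 and 18 in the same order. Fits of only the 2 groups compared called 8, 2, 1 and 1. Leaving out 1 library at a time gave 17 to 28 calls at day 3, 20 to 33 at day 7, 8 to 15 at week 2, 2 to 8 at week 4, 0 to 4 for day 7 against day 3, 0 to 9 for week 2 against day 7 and 5 to 25 for week 4 against day 7. At day 3, day 7, week 2 and week 4, the fits with the fewest calls also called a smaller share of all tested genes higher. With a replicate block, 2 members were called for day 7 against day 3 and 8 for week 2 against day 7, and Cd163 at day 7 turned to a log2 fold change of -0.078. Over all tested genes, same-numbered libraries did not deviate together (correlations of -0.018 to 0.029). A pairing that acts on some genes only would not show in these correlations. Among the 36 genes, replicate 2 was the higher library for 30 at day 3, 32 at day 7, 23 at week 2 and 29 at week 4. Whether the numbers pair libraries is thus not known, and the block is given as another fit. Leaving out 1 library, the log2 fold change over uninjured ranged from -6.24 to 2.37 for Cd163 at day 3, from -6.21 to 8.29 for Cd163 at day 7 and from -0.54 to 2.09 for Ccr2 at day 3. Without Lyz2, the member with the highest mean CPM, the summed level was 1906 CPM in day 3 replicate 2, 3995 CPM in day 7 replicate 2, 751 and 988 CPM at week 2, and 198.6 and 212 CPM in the uninjured libraries. Start-site peaks with −log10 q of 5 or more were listed for 6 and 9 genes at day 7 and 2 in week 4 replicate 2. Among the top 60000 peaks of each list they were listed for 6 genes in day 3 replicate 2 and for 6 and 9 at day 7. When the summit had to lie in the window, 3 were listed in uninjured replicate 2, in week 2 replicate 2 and in each week 4 library. Of the 119 regions near the genes that remained with the stricter q, 29 were gained at day 3 (24.4%, against 20.2% of all), 16 at day 7 (13.4%, against 8.79%) and 4 at week 4 (3.36%, against 2.2%). Of the 96 in the top 60000, 15 were gained at day 3, 12 at day 7 and 6 at week 2 (6.25%, against 4.87%). Leaving out 1 library gave 48 to 76, 36 to 77, 13 to 18 and 10 to 16 at day 3, day 7, week 2 and week 4, since fewer lists then have to hold or lack a peak. At day 3 and day 7 the share near the genes stayed above that of all regions. At week 2 it was 9.28% (9.66% of all) without week 2 replicate 1 and 7.22% (10.1%) without week 2 replicate 2. It was 6.7% (6.25%) without uninjured replicate 1 and 7.73% (8.04%) without uninjured replicate 2. At week 4 it was below that of all regions only without week 4 replicate 2 (5.67%, against 6.95%). The causes of the other moves were not tested. At 0.146 to 0.186 CPM for 3 counts, uninjured levels near 0 limit how well the size of a fold change is known.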
